A study of Arabidopsis thaliana with 12 samples.

Results

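In leaves of Arabidopsis thaliana, 39 annotated non-coding loci had their highest time-point mean at 4 h or 8 h of a sampled day. They were drawn from 306 loci on the array, represented by 1128 probes, whose AGI code (the locus code of the Arabidopsis genome) ends in a digit other than 0, which is the form given to loci added after the first gene models; 11 further loci with such codes were not considered. Each locus was represented by its probe with the highest mean in the authors' deposited series table of log2 values. A locus was kept if its 6 time-point means in that table spanned at least 1 on the log2 scale, if the highest mean fell at 4 h or 8 h, and if Feature Extraction marked that probe as well above background on each array of the highest time point. Of the 306 loci, 176 spanned at least 1, 165 of these were also well above background at their highest time point, and 39 of the 165 were highest at 4 h (18 loci) or 8 h (21 loci). Another 3 loci spanned at least 1 with a maximum at 4 h or 8 h but were not well above background there. The authors' values at all time points therefore chose the loci, and every level, range and time difference below describes that choice and does not test it.

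All 12 samples were leaves of 30-day-old plants of the wild-type accession Col-0, with no treatment or mutation in any of them. The plants grew at 22 °C and 65% humidity under 145 µmol per m2 per s of light, with 8 h light and 16 h dark. There were 6 time points of 2 samples, named light for 0 h, 4 h and 8 h and dark for 12 h, 16 h and 20 h. As continuous light is what the series is titled for, light and dark are used here only as names. The origin of the 2 samples of a time point is not stated, and a p-value therefore measures a spread between arrays that may be technical.

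Long non-coding RNAs are transcripts without a recognised protein-coding sequence, and many plant examples overlap a protein-coding gene. Only those that run opposite to the gene are called natural antisense transcripts. In leaves a large share of the transcriptome follows the day, under the joint control of light and of the circadian clock. In that clock the MYB factors CCA1 and LHY act in the morning and the pseudo-response regulators follow in sequence. The 39 loci are called here by their locus codes.

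Each sample was hybridised to 1 one-colour array, and levels are given as log2 of the processed signal minus the array's 75th percentile over probes detected on all arrays, called the scaled log2 signal. Between 26.5% and 41.2% of probes were well above background on 11 arrays, against 52.2% on the second dark 16 h array. The same array had a slope of 1.28 between the series table and the scanner signal, where the other 11 had slopes from 0.956 to 1.02. The 4 arrays of 0 h and 4 h lay on slide 1 and the 8 later arrays on slide 2. The highest means at 4 h and at 8 h therefore lie on different slides, and a difference between 4 h and 8 h cannot be told apart from one between slides. None of the 21 marker loci listed for leaf and other tissues has a probe, so the tissue label could not be checked. In RNA from whole leaves, fewer cells expressing a transcript and less of it per cell cannot be told apart.

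**Figure D1:**
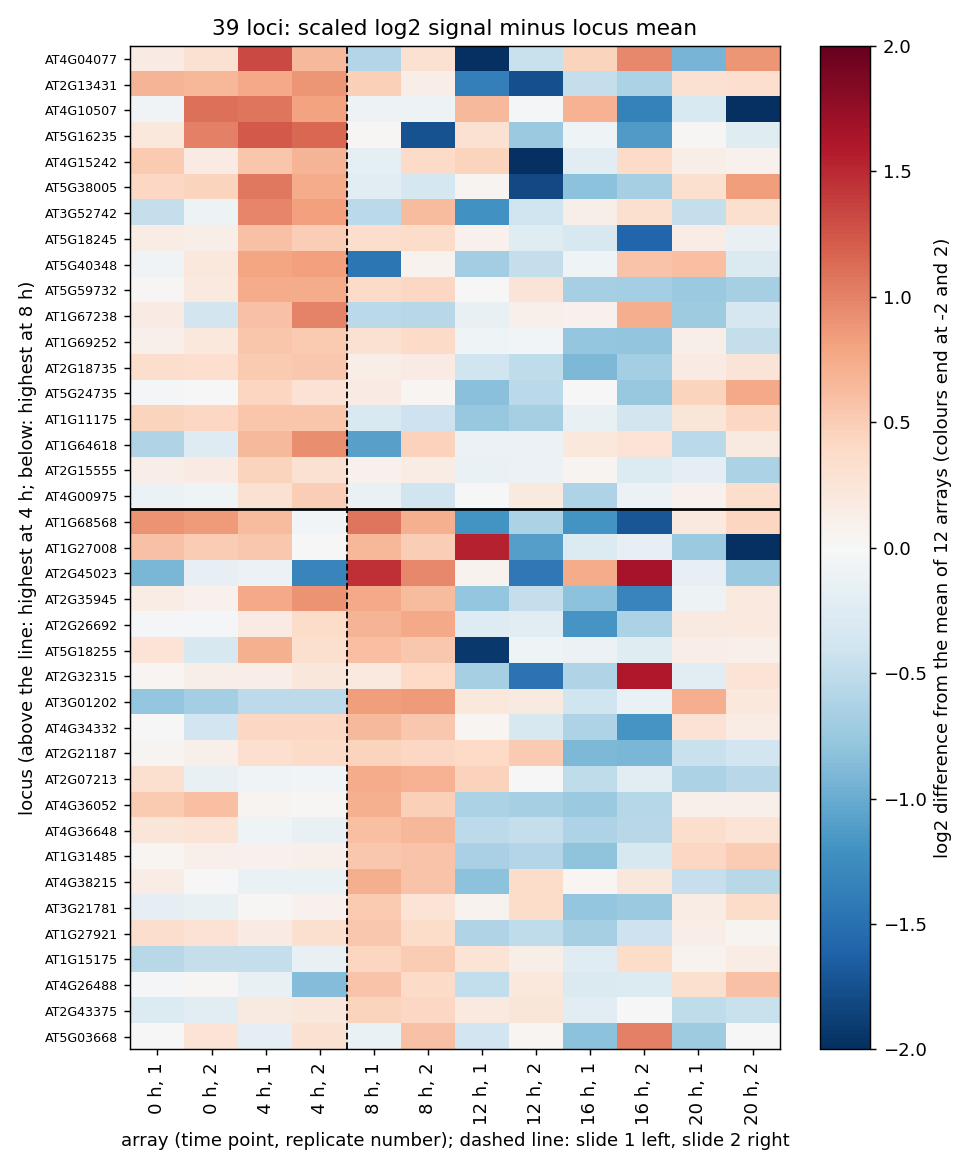
Scaled log2 signal of the 39 loci on the 12 arrays, each locus shown as its difference from its own mean (colour, log2). Rows above the solid line were highest at 4 h (18 loci) and rows below it at 8 h (21 loci); the dashed line separates the slides. The rows of AT4G15242 and AT5G18255 hold a single dark blue cell each, on the second and the first 12 h array, while AT2G13431 and AT4G36052 are blue on all 4 arrays of 12 h and 16 h.

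On the scaled log2 signal, 36 of the 39 loci again had their highest mean at 4 h or 8 h, where 31.1% of the 3302 transcripts tested did so. The exceptions were AT2G32315 (16 h), AT2G21187 (12 h) and AT5G24735 (20 h). AT2G35945 was highest at 8 h in the series table and at 4 h in the scaled signal. The highest scaled mean stood 0.20 above the second highest in the median locus and 0.67 above it at most, for AT3G52742. For 24 of the 39 both arrays of the highest time point lay above the other 10 arrays, which held for 32.0% of all transcripts tested. The 39 loci were brighter than the transcripts tested, with a median level of -2.74 against -4.86. Their replicates were also closer, with a median pooled replicate SD of 0.23 against 0.47. Shares of all transcripts are therefore not shares of transcripts of like brightness and scatter. The range of the 6 scaled means had a median of 1.37 (log2) in the 39 loci. It ran from 0.59 for AT5G03668 to 2.38 for AT2G13431 among the 37 loci whose lowest time point was well above background on at least 1 array. For AT4G04077 and AT2G32315 neither array of the lowest time point was, and only bounds are given. Over all transcripts tested the median range was 1.38.

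In limma's moderated F test over the 6 time points, with Benjamini-Hochberg adjustment over 3302 transcripts, 17 of the 39 loci passed an adjusted p of 0.05, where 14.7% of all transcripts did. By time of the highest mean these were 5 of the 18 loci at 4 h and 12 of the 21 at 8 h. The loci were chosen on the same time-point means, so nothing is read from this count. It was 6 when arrays were scaled on all probes, 7 with no filter on dim probes and 3 within slide 2, where 11.1%, 4.09% and 4.18% of all transcripts passed. Of the 17 loci, 16 were well above background on all 12 arrays.

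Among the loci highest at 4 h, AT2G13431 had the largest range of those that passed the F test. It is listed as a pseudogene in the gene table (RefSeq, assembly TAIR10.1) and overlaps the protein-coding locus AT2G13430. Its scaled log2 signal was 5.80 and 5.78 at 0 h, 5.88 and 6.00 at 4 h, 5.60 and 5.26 at 8 h, 3.75 and 3.36 at 12 h, 4.65 and 4.49 at 16 h, and 5.43 and 5.46 at 20 h. Both 12 h arrays were the lowest of all, followed by both 16 h arrays, and both 4 h arrays were the highest. The range was 2.38 ± 0.21 (SE of the fitted difference), or 5.22-fold. The other probes of the locus differed by 2.22 and 2.11 between the same time points.

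AT1G69252 is listed as ncRNA and overlaps no other gene of the table. On the scaled log2 signal it read 6.04 and 6.15 at 0 h, 6.49 and 6.46 at 4 h, 6.24 and 6.32 at 8 h, 5.85 and 5.88 at 12 h, 5.17 and 5.15 at 16 h, and 6.05 and 5.46 at 20 h. Both 4 h arrays stood above every other array and both 16 h arrays below every other, with a range of 1.32 ± 0.22 (SE). Its F test call was lost under 15 of 21 alternatives. AT2G18735, an ncRNA within 1 kb of DGK3 (a diacylglycerol kinase gene), followed the same order at 4 h and 16 h. It read 2.71 and 2.69 at 0 h, 2.87 and 2.89 at 4 h, 2.48 and 2.52 at 8 h, 1.95 and 1.85 at 12 h, 1.46 and 1.67 at 16 h, and 2.52 and 2.61 at 20 h. Its range of 1.32 came with a pooled replicate SD of 0.07, among the smallest of the 39.

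AT5G59732 differed from these in its low point. This lncRNA locus overlaps EXO70H7, which encodes an exocyst subunit of vesicle tethering, and lies within 1 kb of HSP18.2, a small heat-shock protein gene. Its scaled log2 signal was -0.46 and -0.29 at 0 h, 0.25 and 0.26 at 4 h, -0.11 and -0.07 at 8 h, -0.50 and -0.23 at 12 h, -1.15 and -1.17 at 16 h, and -1.23 and -1.16 at 20 h. The level stayed low at 16 h and 20 h, whereas AT2G13431, AT1G69252 and AT2G18735 stood higher at 20 h than at 16 h. AT1G11175, an ncRNA that also passed the F test and is named here after its values were seen, was lowest at 12 h (2.33 and 2.42) and highest at 4 h (3.65 and 3.64).

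Several of the wide ranges at 4 h belonged to dim probes with scattered replicates. AT4G04077, an lncRNA locus, was well above background on 8 of 12 arrays and on neither 12 h array. It read -4.77 and -4.62 at 0 h, -3.61 and -4.29 at 4 h, -5.51 and -4.62 at 8 h, -8.02 and -5.38 at 12 h, -4.48 and -3.97 at 16 h, and -5.86 and -4.05 at 20 h. The 4 h level was at least 3.99-fold the 12 h level, a bound that sets each dim array to its own reading or to the weakest detected probe of that array, whichever is higher. Neither 12 h reading is a measured level.

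AT4G15242 spanned 1.89, with -4.74 on the first and -8.16 (not well above background) on the second 12 h array. Its range was 0.54 without the second. AT4G10507 spanned 2.26, with -5.26 and -7.31 (not well above background) at 20 h. Its range was 1.26 without the second 20 h array. AT5G16235, an lncRNA overlapping AT5G16230, read -2.98 and -3.05 at 4 h against -4.18 and -5.94 at 8 h. AT5G40348, which overlaps MYB24 (a MYB transcription factor gene of flower development), was well above background on 4 arrays only, both of 4 h among them, and its 4 h level was at least 1.64-fold that of 12 h. None of these 5 loci passed the F test. Their pooled replicate SDs ran from 0.56 to 1.02.

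The remaining named loci of this time point were AT5G38005, AT3G52742, AT5G18245 and AT1G67238, with ranges of 1.79, 1.70, 1.5 and 1.34, none of which passed the F test. AT3G52742 read -3.27 and -3.42 at 4 h against -4.72 and -4.35 at 0 h, with 1.19 between the means, and overlaps another non-coding locus of the array, AT3G52748, whose own highest mean fell at 12 h. AT5G18245 overlaps MYR1, a MYB-related transcription factor gene. Its range was 1.5 with all arrays and 0.86 when the second dark 16 h array was left out, which read -0.57 where the first read 0.70. The other probes of AT5G18245 differed by only 0.28 and 0.49 between 4 h and 16 h.

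**Figure D2:**
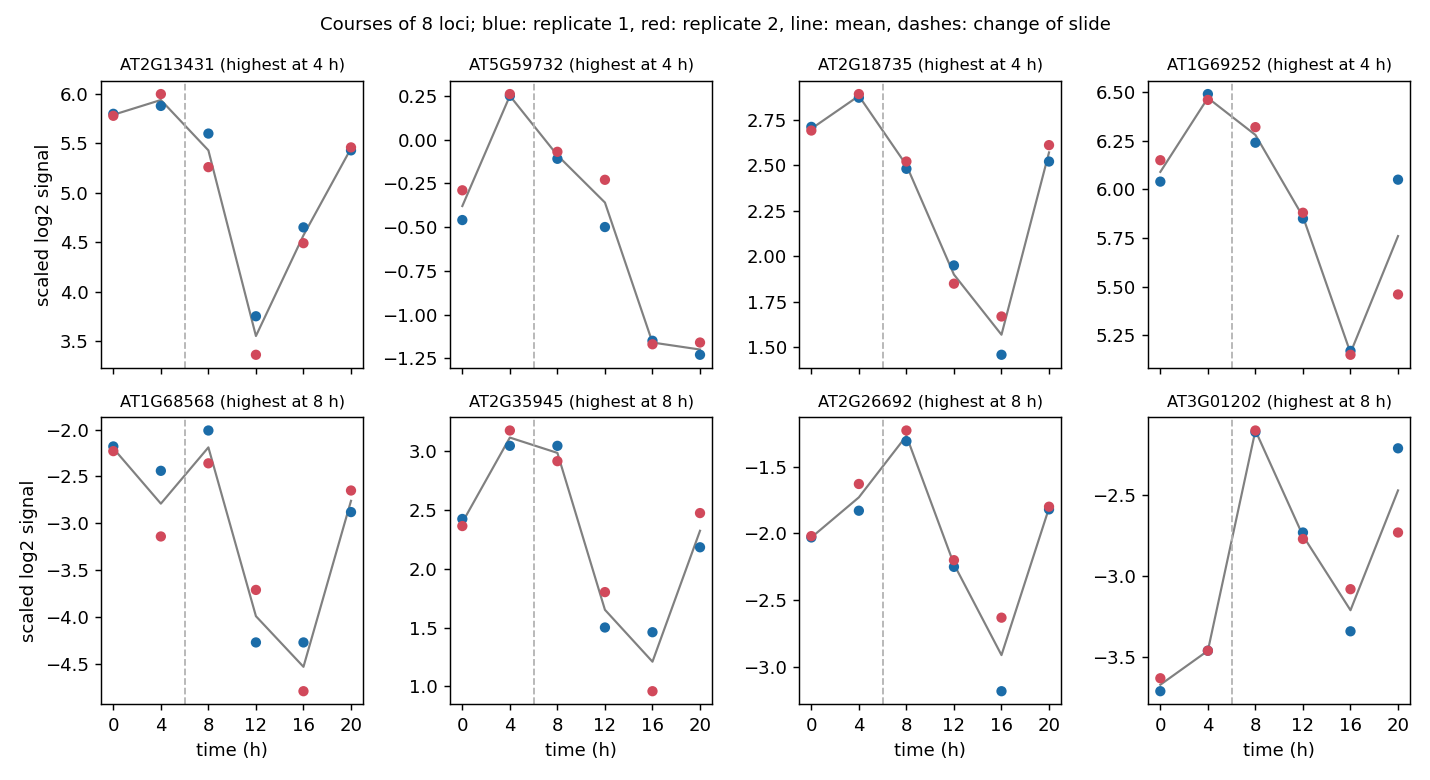
Scaled log2 signal of 8 loci over the 6 time points (x axis, hours), with 1 point per array and a line through the means; the dashed line marks the change of slide. The vertical scale differs between panels. In AT2G13431, AT2G18735, AT1G68568, AT2G35945 and AT2G26692 the means of 12 h and 16 h are the 2 lowest. AT5G59732 is low at 16 h and 20 h and AT3G01202 is low at 0 h and 4 h.

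Among the loci highest at 8 h, AT1G68568 had the largest range, 2.34 ± 0.32 (SE) or 5.07-fold. The gene table classes it as antisense RNA, and it overlaps AT1G68570, which encodes NPF3.1, a transporter of the NRT1/PTR family. The 2 arrays read -2.18 and -2.23 at 0 h, -2.44 and -3.14 at 4 h, -2.01 and -2.36 at 8 h, -4.27 and -3.71 at 12 h, -4.27 and -4.79 at 16 h, and -2.88 and -2.65 at 20 h. All 4 arrays of 12 h and 16 h lay below the other 8, and the arrays of 0 h and 8 h overlapped. In the series table its range was 3.24, with 4.03 on the first and 1.70 on the second dark 16 h array. Both other probes of the locus were highest at a time other than 4 h or 8 h, although they too were higher at 8 h than at 16 h, by 1.12 and 1.38.

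AT2G26692 overlaps AT2G26690, the gene of NPF6.2, another member of the same transporter family. It read -2.03 and -2.02 at 0 h, -1.83 and -1.63 at 4 h, -1.31 and -1.23 at 8 h, -2.25 and -2.20 at 12 h, -3.18 and -2.63 at 16 h, and -1.82 and -1.80 at 20 h. Both 8 h arrays stood above all others, and both of its other probes were also highest at 4 h or 8 h. AT2G35945, an lncRNA locus over BLH1 (a BEL1-like homeodomain transcription factor gene), kept a broad top. Its arrays read 3.04 and 3.17 at 4 h and 3.04 and 2.91 at 8 h, then 1.5 and 1.80 at 12 h and 1.46 and 0.96 at 16 h. At 20 h it read 2.18 and 2.47 and at 0 h 2.42 and 2.36, so the arrays of 20 h and 0 h lay between both sets.

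AT3G01202 and AT2G07213 were low at other times. AT3G01202 overlaps RP2, the gene of a regulatory protein of pyruvate orthophosphate dikinase, and read -3.71 and -3.63 at 0 h, -3.46 and -3.46 at 4 h, -2.11 and -2.10 at 8 h, -2.73 and -2.77 at 12 h, -3.34 and -3.08 at 16 h, and -2.21 and -2.73 at 20 h. All 4 arrays of slide 1 lay below all 8 of slide 2, and the part of the slide in this was not tested. Both of its other probes went slightly the other way between 8 h and 0 h, by -0.27 and -0.02. AT2G07213 read -3.20 and -3.24 at 8 h and was lowest at 20 h, with -4.57 and -4.49; it did not pass the F test.

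AT4G34332 and AT4G36052 had wider ranges in the series table, 2.41 and 2.13, than in the scaled signal, 1.5 and 1.25. The F test call of AT4G34332 was lost under 16 of 21 alternatives. The other probes of that locus differed by only 0.23 and 0.14 between the same time points. With the mean of its probes the range was 0.62. For AT4G34332 the dark 16 h arrays read 3.47 and 1.25 in the series table and -4.75 and -5.31 in the scaled signal. On the second of these arrays its probe was not well above background. AT4G36052, which overlaps AT4G36050, read -2.54 and -2.47 at 0 h, -3.01 and -3.04 at 4 h, -2.35 and -2.58 at 8 h, -3.70 and -3.73 at 12 h, -3.80 and -3.63 at 16 h, and -2.96 and -2.96 at 20 h in the scaled signal. The 4 arrays of 12 h and 16 h were again below the other 8, and 0 h and 8 h overlapped. AT2G21187, with 6 probes, read 2.53 and 2.49 at 8 h, 2.48 and 2.61 at 12 h and 1.18 and 1.17 at 16 h, so that 8 h and 12 h were not separated.

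AT1G27008, AT2G45023 and AT2G32315 were all highest at 8 h in the series table. They were well above background on 11, 9 and 7 of the 12 arrays, and none of the 3 passed the F test. The ranges of AT1G27008 and AT2G45023 were 1.98 and 1.91. AT1G27008 is listed as protein-coding in the gene table. It read -3.00 and -3.17 at 8 h, -2.12 and -4.76 at 12 h and -4.40 and -5.73 (not well above background) at 20 h. AT2G45023 read -3.02 and -3.52 at 8 h and -3.74 and -2.83 at 16 h, which overlap. AT2G32315 was well above background at 8 h and on neither array of 12 h or 20 h. Its 8 h level was at least 1.84-fold and 1.21-fold those levels. In the scaled signal AT2G32315 was highest at 16 h, with -6.19 (not well above background) and -3.99, and both of its other probes were highest at 16 h too.

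AT5G18255 overlaps AT5G18260 and, like AT5G18245, lies within 1 kb of AT5G18250. It read 4.00 and 3.61 at 4 h, 3.90 and 3.84 at 8 h and 1.36 and 3.21 at 12 h, and its range was 1.58, or 0.75 without the first 12 h array. All 8 of its other probes were highest at 4 h or 8 h. At the edge of the choice, AT1G27921 (series-table range of 1.01) and AT2G18735 (1.03) stood just inside the minimum of 1. AT4G40085 (0.956) and AT3G52605 (0.906) stood just outside it.

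The 7 loci that fell from 8 h to 12 h were AT2G13431, AT1G68568, AT2G35945, AT4G36052, AT1G27921, AT1G31485 and AT4G36648, the last 2 named here after their values were seen. In limma's moderated test with Benjamini-Hochberg adjustment 1.39% of all transcripts fell, and none of the 39 rose, against 2.09% of all transcripts. The step is within slide 2, and the choice of the loci used it, so the count is a description. It was 0 with scaling on all probes and in a fit within slide 2, where 0.424% and 0.333% of all transcripts changed in either direction. It was 1 when either 8 h array was left out, where 0.818% or 0.878% of all transcripts changed, and 8 when both dark 16 h arrays were, where 5.09% did. The largest of the 7 was that of AT2G13431, by 1.88, and the mean of AT1G68568 fell to -3.99 at 12 h, against -2.19 at 8 h. AT1G27921, over the microtubule-associated protein gene MAP65-8, read -0.23 and -0.13 at 12 h and 0.91 and 0.74 at 8 h. AT4G36648 read 0.68 and 0.73 at 12 h and 1.80 and 1.86 at 8 h, and AT1G31485 read -1.39 and -1.32 at 12 h and -0.20 and -0.17 at 8 h. In each of these 3 both 12 h arrays lay below both 8 h arrays. Over all 39 loci the median of 12 h minus 8 h was -0.60, with 32 negative and 7 positive, against a median of -0.11 over all transcripts tested.

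From 0 h to 4 h no locus of the 39 passed limma's test in either direction, where 0.394% of all transcripts rose and 0.454% fell. At an unadjusted p under 0.05, 7 of the 39 were higher and 1 was lower at 4 h, where 8.84% of all transcripts were under it in either direction. After normexp with quantile normalization 3 of the 39 passed, where 2.76% of all transcripts did. The median of 4 h minus 0 h was 0.28 in the 39 loci, against 0.05 over all transcripts tested, and it ran from -0.59 (AT1G68568) to 1.23 (AT1G64618). For 17 of the 18 loci highest at 4 h both 4 h arrays lay above both 0 h arrays. Both time points are on slide 1. From 4 h to 8 h the 39 loci ran from -2.04 (AT5G16235) to 1.91 (AT2G45023), a step that runs between the slides. For 7 of the 18 loci highest at 4 h, and for none of the 21 highest at 8 h, the 0 h and 4 h means both lay above all 4 later means. Within slide 2, the 8 h mean stood above those of 12, 16 and 20 h for 19 of the 21 loci highest at 8 h and for 4 of the 18 highest at 4 h. These counts, and that of 4 h above 0 h in the loci highest at 4 h, are largely set by the grouping on the highest mean. They describe that grouping and do not test it.

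In 14 of the 39 the 2 lowest means were those of 12 h and 16 h, a pattern found in 8.0% of all transcripts tested. These were 6 of the 18 loci highest at 4 h and 8 of the 21 highest at 8 h. Among loci of the same code form, the same pattern held for 18 of the 53 highest at 20 h or 0 h. It held for 0 of the 73 highest at 12 h or 16 h and for 29 of the 141 remaining loci. A transcript highest at 12 h or 16 h cannot show this pattern, so the share in the 39 is in part set by their choice. Another 6 of the 39 had their 2 lowest means at 16 h and 20 h, 4 at 12 h and 20 h, and 15 at other pairs of time points. From 16 h to 20 h the mean was higher at 20 h in 24 of the 39 loci and lower in 15. The median difference was 0.51, against -0.39 over all transcripts tested. From 12 h to 16 h the medians were -0.09 in the 39 loci and 0.36 over all transcripts. The 16 h means include the second dark 16 h array, on which 52.2% of probes were well above background. The choice of the loci used the 16 h means too, so these differences describe that choice.

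**Figure D3:**
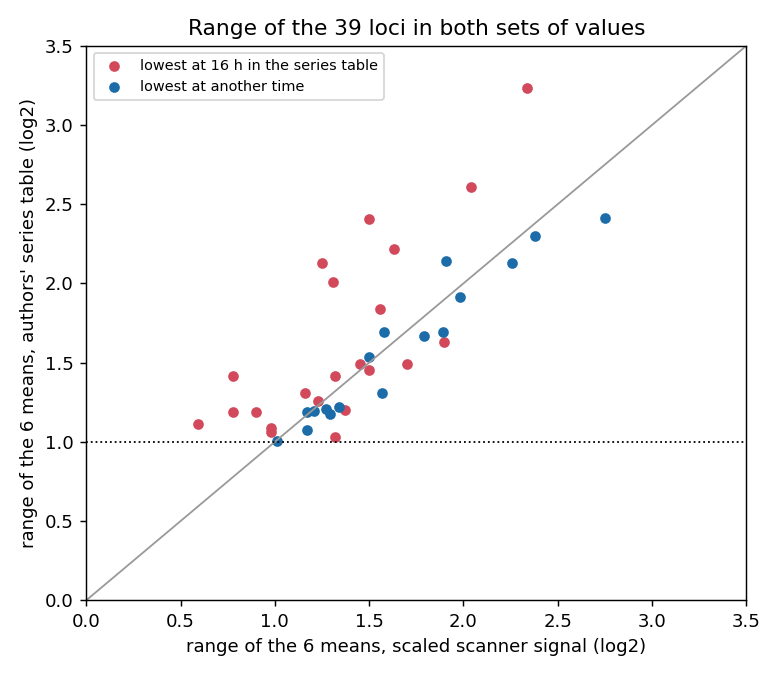
Range of the 6 time-point means for each of the 39 loci, in the scaled scanner signal (x axis, log2) and in the authors' series table (y axis, log2), with the line of equal values and a dotted line at the minimum of 1. For AT4G04077 and AT2G32315 the scaled range ends at readings not well above background. Red points, the 22 loci lowest at 16 h in the series table, lie above the line of equal values in 17 cases, and blue points, the other 17 loci, in 4.

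The choice of loci moved with the arrays used, those of dark 16 h among them. In the series table, loci lowest at 16 h numbered 22 of the 39, against 11 in the scaled signal. The second dark 16 h array lay below the first for 30 of the 39 loci in the series table, with a median difference of -0.65, and for 14 of the 39 in the scaled signal, with a median difference of 0.15. When that array was left out, 34 of the 39 loci were chosen again. Not chosen again were AT2G15555, AT2G43375, AT4G26488, AT5G18245 and AT5G59732. Without the first dark 16 h array 37 were chosen again. Leaving out a single array of another time point kept from 33 (first 20 h array) to 39 (second 20 h array). With both dark 16 h arrays left out 26 were chosen again, and no other time point was left out as a whole. With the rule applied to the scaled signal 36 loci were chosen, 30 of them among the 39.

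Beyond the probe that chose it, each locus had other probes, 90 in all, and these were measured in the same RNA on the same arrays. Of the 90, 61 (67.8%) were highest at 4 h or 8 h. For 80 of them the sign between the highest and lowest time points of the chosen probe was the same. However, 10 of the 90 were well above background on no array, and their differences are not measured levels. Among the other 80 probes 58 (72.5%) were highest at 4 h or 8 h, 76 had the same sign and 4 the opposite one. These counts leave out the size of the differences, which for some probes was far below that of the chosen probe. Counting all 90, in 21 of the 39 loci every other probe was highest at 4 h or 8 h, and in 8 loci none was. The 4 detected probes of opposite sign belonged to AT3G01202, with 2, and to AT1G67238 (-0.18) and AT5G16235 (-0.28). With detected and undetected probes counted, the share was 81.5% within their own time window for loci highest at 12 h or 16 h, and 58.5% for those highest at 20 h or 0 h; the differences between these shares were not tested.

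**Figure D4:**
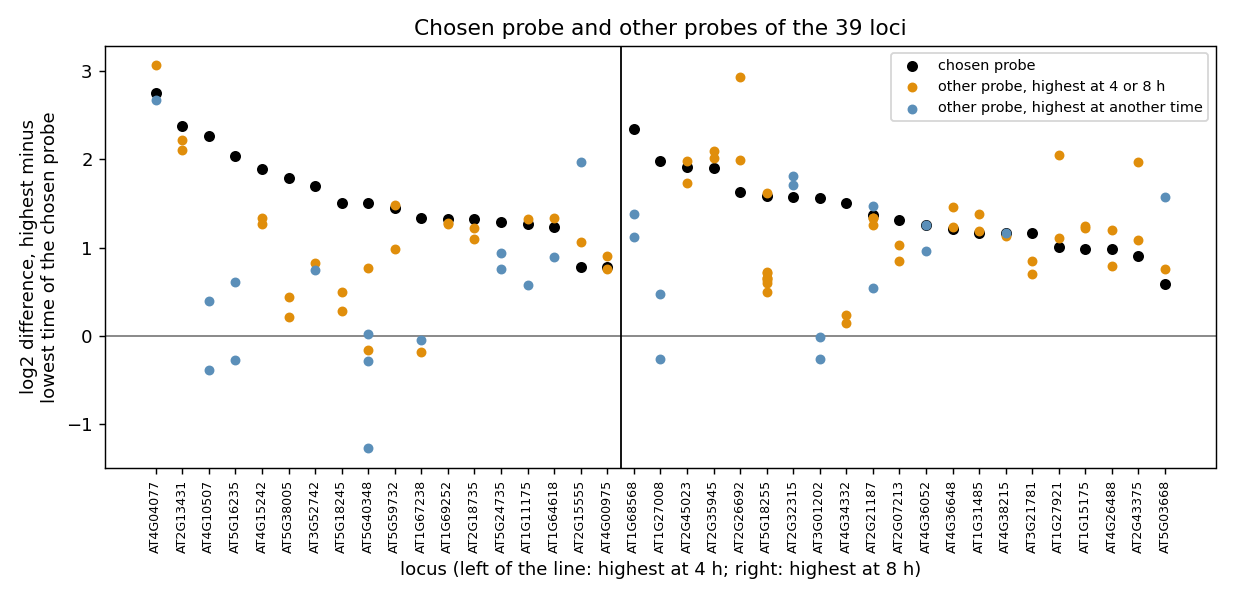
Difference between the highest and lowest time point of the chosen probe (log2, y axis), for the chosen probe (black) and for the other probes of each of the 39 loci (orange where the probe's own highest mean was at 4 h or 8 h, blue otherwise). Of the 90 other probes 80 lie above 0; 10 of the points, among them the lowest one of AT5G40348 at -1.28, are probes well above background on no array.

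What the choice did not use is the class of the loci in the gene table, in which all 39 were found. It lists 21 as lncRNA, 14 as ncRNA, 2 as antisense RNA (AT1G68568 and AT4G00975), 1 as pseudogene and 1 (AT1G27008) as protein-coding. Of the 21 lncRNA loci 16 were highest at 8 h and 5 at 4 h, while of the 14 ncRNA loci 3 were highest at 8 h and 11 at 4 h. The classes also differed in position: all 21 lncRNA loci overlapped a protein-coding gene, against 1 of the 14 ncRNA loci. Over the 306 loci the same contrast held, with 164 of 172 lncRNA loci (95.3%) and 12 of 114 ncRNA loci (10.5%) overlapping one. The division by time point was not tested, and since 4 h and 8 h lie on different slides it cannot be told apart from a slide difference between the classes. The table gives no strand, so overlap does not say which of the lncRNA loci run opposite their partner.

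**Figure D5:**
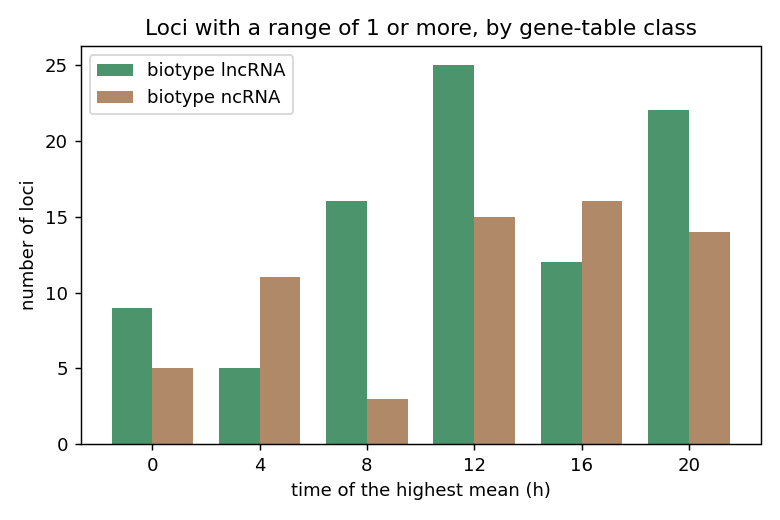
Number of loci with a range of at least 1 and a probe well above background at the highest time point (y axis), by the time of the highest mean (x axis, hours) and by class in the gene table. The lncRNA bars stand at 9, 5, 16, 25, 12 and 22 and the ncRNA bars at 5, 11, 3, 15, 16 and 14 from 0 h to 20 h.

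In all, 26 of the 39 loci (66.7%) overlapped a protein-coding gene, 18 of the 21 highest at 8 h and 8 of the 18 highest at 4 h. The share was 53.4% of the 73 loci highest at 12 h or 16 h, 58.5% of the 53 highest at 20 h or 0 h and 61.7% of the 141 remaining loci. Besides those named above, the partners included EXPA20 (an expansin, which loosens cell walls) for AT4G38215, UGT71B6 (a glucosyltransferase that acts on abscisic acid) for AT3G21781, UKL4 (a uridine kinase-like protein) for AT4G26488 and TRM28 for AT5G03668. AT2G43375 overlapped 2 loci listed as snoRNA, small RNAs that guide the modification of ribosomal RNA. No protein-coding partner of the 39 loci has a probe, so their courses could not be set side by side. In the lists of clock, light-signalling, cold-response and known non-coding genes, 49 of 60 entries have a locus in the gene table, and no locus of the 39 overlapped or lay within 1 kb of one of these. The other 11 entries could not be checked. No such count is given for loci outside the 39, so nothing is read from this absence.

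The probe was well above background on all 12 arrays for 29 of the 39 loci (74.4%), against 83.6%, 88.7% and 87.2% in the loci highest at 12 h or 16 h, in those highest at 20 h or 0 h and in the remaining loci. The median length in the gene table was 1246 bases. The loci lay on all 5 chromosomes, with 9, 10, 3, 9 and 8 on chromosomes 1 to 5.

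Genes of known daily course were read on the same scale. Of 19 clock genes listed, 8 have probes, and 2 of these, CCA1 and LHY, were highest at 8 h. Their means read 0.84 and 4.09 at 0 h, 6.48 and 8.01 at 4 h, 6.55 and 8.21 at 8 h, and 4.74 and 4.85 at 12 h. PRR9 and PRR7 were highest at 12 h, PRR5, PRR3 and TOC1 at 16 h, and CHE at 20 h. The hours are used as labels, and 4 h and 8 h are not read here as times after dawn. Among the 39 loci the largest step from 0 h to 4 h was the 1.23 of AT1G64618, which did not pass the test. From 0 h to 4 h, 4 of the 8 clock genes rose and none fell, and from 8 h to 12 h 4 rose and 2 fell. Of 14 light-signalling genes listed 10 have probes; 2 rose from 0 h to 4 h (PIF5, a growth-promoting bHLH factor, and HFR1, which restrains such factors), 1 rose from 8 h to 12 h, and 3 had their highest mean at 4 h or 8 h. Of 9 cold-response genes 6 have probes, of which 2 fell from 0 h to 4 h, 3 rose from 8 h to 12 h and none was highest at 4 h or 8 h. Of 18 known non-coding RNAs 8 could be matched to a locus through the table's symbols, and 1 of these, TAS4, has a probe; it passed none of the 3 tests. The counts of rises and falls and the tests of TAS4 are from limma with adjustment over all 3302 transcripts. The times of the highest mean are read from the time-point means without a test.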

How the data were processed

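Leaf RNA (0.5 µg per sample, per the labels' protocols) of 12 samples was labelled with Cy3 and hybridised to 1 array each. Per the file headers, quantification by the authors used Agilent Feature Extraction 10.5.1.1; each spot's deposited intensity is linear and background-corrected, with 0 or 1 scores for detection and outliers and no scaling between arrays. A series table, also deposited, gives log2 values for 15013 probes, made by steps not given in the sources used here. Its columns had medians of 1.37 and followed the scanner log2 signal with r of at least 0.995, so its scale is log2 while its normalization method stays unknown.

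The loci were chosen in the series table. Levels are log2 processed signal minus the 75th percentile over 2876 probes that passed the background flag on every one of the 12 arrays. Control spots (536) and spots marked as outliers (0 to 9 per array) were left out, and no probe was saturated. The precision is limited by 2 arrays per time point. A transcript was tested by its brightest probe, if both arrays of some time point detected it; this kept 3302 of 5154, the 39 loci included, each through its chosen probe. The model (limma 3.58.1, R 4.3.3) ran over all 12 arrays with 1 mean per time point (F test, 4 h minus 0 h, 12 h minus 8 h), Benjamini-Hochberg adjustment and a threshold of 0.05, and checked on simulated data. The files hold no mean spot signal, so normexp used the median signal, with an offset of 50. Alternatives were other scalings, normexp, the series table, no detection filter, the mean of probes, a replicate block, single slides and arrays left out.

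Named loci were the 12 with the largest scaled range at each of 4 h and 8 h and those nearest the range minimum, 26 in all. The lists of clock, light-signalling, cold-response and known non-coding genes and of tissue markers, the loci and the tests were chosen with earlier results of these data known. Build names differ between array headers and gene table, so no coordinates are given. Replicate numbers did not pair the samples: the correlations of deviations between same-numbered arrays ran from -0.104 to 0.185 over 15 pairs of time points.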

Additional observations from a re-analysis of the deposited data

How the results depend on the processing

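The rule chose 39 loci. Leave-one-out fits gave 33 (first 20 h array left out) to 44 (second 4 h array left out), normexp with quantile normalization 8, and a range minimum of 1.5 gave 17; the other alternatives gave 28 to 36. The F test count of 17 became 6 with scaling on all probes, 7 with no filter on dim probes and 3 within slide 2, where 11.1%, 4.09% and 4.18% of all transcripts passed. Leaving out single arrays gave 10 (first 8 h array, 10.3% of all transcripts) to 23 (first dark 16 h array, 38.6%), and 11 for each of the 4 arrays of slide 1 and the second 8 h array. With the replicate block it was 15; the numbers do not pair the samples, and the block moved no count by over 1.5 times. The count from 0 h to 4 h was 0 in limma, 3 after normexp with quantile normalization (2.76% of all transcripts), and 0 for every single array left out and with the replicate block. The count of 7 from 8 h to 12 h became 4 with quantile normalization (1.27% of all transcripts, in either direction) and with the series table (1.18%), 0 with scaling on all probes (0.424%) and within slide 2 (0.333%), 12 after normexp with quantile normalization (7.33%), 1 with no filter (0.485%), and 7 with the replicate block. Single arrays left out gave 1 (either array of 8 h) to 8 (either of dark 16 h, 5.09%), and 3 or 4 for any array of 0, 4 or 20 h. Slide 2 alone has fewer arrays and no filter means more transcripts tested; otherwise the cause was not tested. Of the named falls from 8 h to 12 h, that of AT2G13431 was lost under 1 of 21 alternatives, AT4G36052 under 6, AT1G68568 under 12, AT2G35945 under 13 and AT1G27921 under 15, and none changed sign. These 21 alternatives, used also for the F test calls of single loci, leave out the fit within slide 2. In that fit no locus of the 39 passed from 8 h to 12 h, and 3 passed the F test. Separately, 10 of the 39 loci were not well above background on every array. The part of weak signal in the lost calls was not tested.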
